A study of Sus scrofa with 6 samples.

Results

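Villin, ezrin and 6 partner genes of the intestinal brush border were examined on microarrays of 2 porcine intestinal epithelial cell lines, IPEC-J2 and IPEC-1. The genes were VIL1, EZR, MSN, CALML4, MYO6, SLC9A3R1, BAIAP2L1 and PDZK1, and every probe set whose only gene symbol in the platform annotation was one of these was taken. This gave 10 probe sets for 8 genes, out of 23999 probe sets and 6765 genes in all. MSN and PDZK1 had 2 probe sets each, and the other 6 genes had 1. The members had been chosen with earlier results of these arrays known, so how many of them differed is a description and not independent evidence.

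The study set the baseline gene expression of both lines side by side to characterise them as models of the intestinal epithelium. IPEC-J2 and IPEC-1 are spontaneously immortalised, non-transformed lines derived from newborn piglet small intestine, and neither received a treatment. Both grew as polarised monolayers on uncoated membrane inserts in medium with foetal calf serum and epidermal growth factor. The labels give 7 days of culture, and the methods give a longer time. RNA from 3 cultures of IPEC-J2 and 3 of IPEC-1, 500 ng each, was hybridised to 6 Affymetrix Porcine Genome Arrays, 1 per culture. Each line stands for its tissue by a single line, so that differences between lines and between gut segments or donors cannot be told apart. Because a bulk culture was measured, fewer cells carrying a transcript and less of it per cell cannot be told apart either.

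The brush border is the carpet of microvilli on the apical face of absorptive enterocytes. Each microvillus is built on a core of parallel actin filaments, which villin and other bundling proteins hold together. Ezrin, radixin and moesin, together the ERM proteins, tie this core to the overlying membrane, scaffold proteins with PDZ domains anchor channels and transporters to them, and myosin motors pull membrane and cargo along the filaments. Neighbouring tips are held together by an adhesion complex of protocadherins and their cytoplasmic partners.

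Signals are given as deposited, on a log2 scale with a floor of exactly 4.00, at which values carry no order. The floor held between 40.5 and 48.3% of the probe sets of an array, most on IPEC-J2 replicate 1. A log2 difference is always IPEC-J2 minus IPEC-1. Genes were compared by limma on the mean of their probe sets, and probe sets were compared in a separate limma fit, each with Benjamini-Hochberg adjustment over the whole table and a threshold of 0.05. The labels of IPEC-J2 replicate 3 and IPEC-1 replicate 1 share a culture note, called A here, and those of IPEC-J2 replicate 1 and IPEC-1 replicate 2 share another, called B. A second fit used the note pairs as a block, with the remaining arrays as the third pair, and its adjusted p is given where it ended a call. It leaves 2 residual degrees of freedom, where the fit without a block has 4. Where all arrays of a line were at the floor, the spread of that line is hidden, and the SE and p can be too small.

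By the gene fit without a block, 7 of the 8 genes were called higher in IPEC-J2 and 1 was called lower. Over all 6765 genes, 9.46% were called higher and 11.2% lower, and 20.7% in either direction. Among the 5513 genes above the floor on at least 1 array, the shares were 11.6% higher, 13.8% lower and 25.4% in either direction. With the note pairs as a block, 3 of the 8 genes (EZR, MSN and MYO6, all higher) were called, against 11% of all genes. In the probe set fit with this block, 1 of the 10 probe sets (EZR) was called, without a share over all probe sets beside it. The median log2 difference was 1.30 over the 8 genes and -0.05 over those 5513 genes. By the probe set fit, 6 of the 10 probe sets were called, all higher, against 5.58% of all probe sets called higher, 6.24% called lower and 11.8% called in either direction. All 3 IPEC-J2 values lay above all 3 IPEC-1 values in 8 of the 10 probe sets and below them in 1. Over all probe sets, 11.9% were higher in this way and 28.1% did not overlap in either direction. With 3 arrays per line, 0.1 is the smallest p of a two-sided exact permutation test, and 9 of the 10 probe sets reached it.

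**Figure D1:**
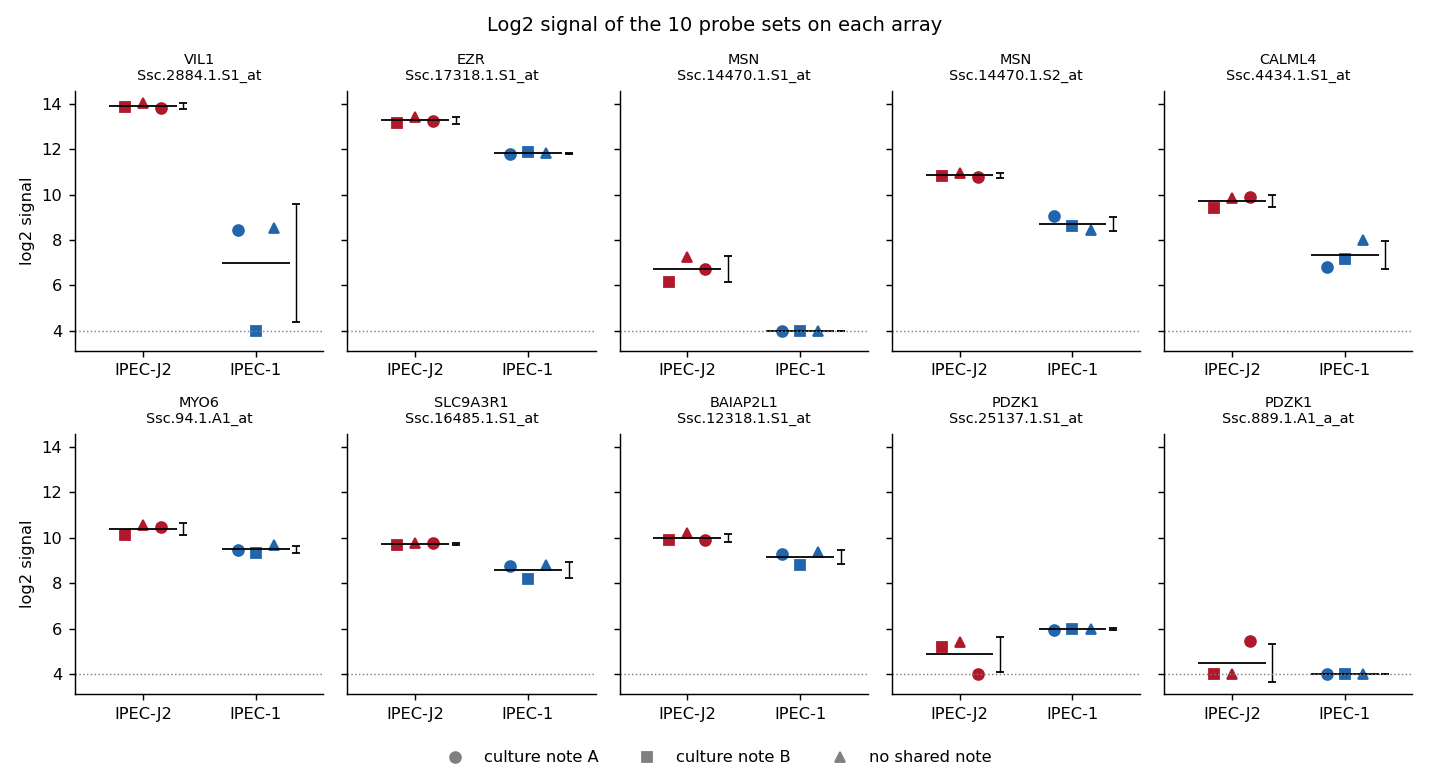
Log2 signal (vertical axis) of each of the 10 probe sets on the 3 IPEC-J2 arrays (red, left) and the 3 IPEC-1 arrays (blue, right). Black lines are means, brackets to the right are ± 1 SD, symbols give the culture note and the dotted line is the floor at 4.00. In VIL1, 2 of the 3 IPEC-1 arrays sit near 8.5 and the other is at the floor, while all 3 IPEC-J2 arrays lie between 13.81 and 14.04.

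Villin-1, encoded by VIL1, bundles the actin filaments of the microvillus core and can sever them when calcium rises. The identity of its probe set rests on the platform annotation, since the study's text treated the gene as absent from the array. A figure caption of the study nevertheless names it as up-regulated there. By qPCR the study found higher VIL1 in IPEC-J2, and by Western blot it detected the protein in IPEC-J2 and not in IPEC-1. Its signal was 13.83, 14.04 and 13.81 in IPEC-J2 replicates 1, 2 and 3, against 8.45, 4.00 and 8.53 in IPEC-1 replicates 1, 2 and 3. The IPEC-J2 arrays agreed closely with each other, whereas IPEC-1 replicate 2 stood at the floor and apart from the other IPEC-1 arrays. The means were 13.89 ± 0.13 in IPEC-J2 and 6.99 ± 2.59 in IPEC-1 (SD, n = 3 each), and the log2 difference was 6.90 (SE 1.43, 95% interval 3.08 to 10.72). It was called higher in the gene fit (adjusted p = 0.0367 from limma), while the same values missed the threshold among all probe sets (adjusted p = 0.0563).

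How large the VIL1 difference was depended on the IPEC-1 array at the floor. Without IPEC-1 replicate 2, the log2 difference was 5.40, a 42.3-fold difference, and the adjusted p fell to 0.000436 from limma. The pair of culture note A gave a similar 5.36, and the pair of culture note B, which holds the array at the floor, gave 9.83. Leaving out any other single array, or using the note pairs as a block (0.101), ended the call, with an adjusted p between 0.0693 and 0.120 for the single arrays. The fold was 198 without IPEC-1 replicate 1 and 203 without IPEC-1 replicate 3. Even the smallest of the pairwise gaps, the lowest IPEC-J2 value minus the highest IPEC-1 value, was 5.28 on the log2 scale.

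BAIAP2L1 encodes a membrane-bending adaptor that takes part in the elongation of the actin core. It had signals of 9.88, 10.19 and 9.92 in IPEC-J2 and 9.27, 8.78 and 9.36 in IPEC-1. The lines did not overlap, with the lowest value again on IPEC-1 replicate 2. The log2 difference of 0.86 (SE 0.19) corresponds to a 1.82-fold higher level in IPEC-J2. Of the higher genes it lay nearest to the threshold (adjusted p = 0.0466 from limma), and it was not called among all probe sets (0.0706), with the note pairs as a block (0.0676) or without any 1 of the 6 arrays (0.0522 to 0.129).

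Ezrin, encoded by EZR, is the ERM protein of the intestinal brush border. Its signal was 13.13, 13.42 and 13.23 in IPEC-J2, against 11.80, 11.85 and 11.82 in IPEC-1. The IPEC-1 arrays lay within 0.05 of each other, and the gap between the lines was 1.28, far larger than the range of 0.29 within IPEC-J2. The log2 difference of 1.44 (SE 0.08, 95% interval 1.22 to 1.66) means that IPEC-J2 had a 2.71-fold higher level (adjusted p = 0.00130 from limma over genes, 0.00203 over probe sets). EZR kept its call with the note pairs as a block (0.0272) and without any 1 array (0.00164 to 0.0120).

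Moesin (MSN), the ERM protein best known from leukocytes and endothelium, was measured by 2 probe sets. The brighter had signals of 10.83, 10.96 and 10.75 in IPEC-J2 and 9.04, 8.62 and 8.45 in IPEC-1. The dimmer had 6.15, 7.27 and 6.73 in IPEC-J2 and only floor values in IPEC-1. Both thus separated the lines without overlap and in the same direction. The brighter probe set was 4.42-fold higher in IPEC-J2, with a log2 difference of 2.14 (SE 0.18, adjusted p = 0.00566 from limma). For the probe set at the floor only a bound can be given. Against a level of 5.02, the 95th percentile of what an IPEC-1 array shows where the remaining IPEC-1 arrays are at the floor, its IPEC-J2 level was at least 3.24-fold higher (adjusted p = 0.0126 from limma). When only signals above the floor are used for this percentile, the level is 7.85 and no bound remains. The mean of both probe sets differed by 2.43 (SE 0.19, adjusted p = 0.00313 from limma) and kept its call without any 1 array (0.00694 to 0.0220) and with the note pairs as a block (0.0415). Over probe sets, the calls of both ended with this block (0.0786 for the brighter, 0.0858 for the dimmer), and that of the dimmer also ended without IPEC-J2 replicate 3 (0.0623) and without IPEC-1 replicate 1, 2 or 3 (0.0544, 0.0542 and 0.0577).

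Radixin (RDX), the third ERM protein, was not among the 8 genes. It averaged 7.95 ± 0.44 in IPEC-J2 and 7.72 ± 0.49 in IPEC-1 (SD, n = 3 each) over 2 probe sets. Its log2 difference of 0.23 (SE 0.36) was smaller than the spread between arrays (adjusted p = 0.809 from limma). Beta-actin (ACTB) likewise had 12.27 ± 0.11 in IPEC-J2 and 12.23 ± 0.18 in IPEC-1 (SD, n = 3 each), a log2 difference of 0.04 (SE 0.11).

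SLC9A3R1 encodes NHERF1, a PDZ scaffold that binds ezrin and anchors apical transporters. Signals of 9.69, 9.75 and 9.78 were found in IPEC-J2, against 8.76, 8.17 and 8.81 in IPEC-1. IPEC-1 replicate 2 was the lowest here too, and the IPEC-J2 arrays spanned only 0.09. IPEC-J2 exceeded IPEC-1 by 2.23-fold (1.16 on the log2 scale, SE 0.20, adjusted p = 0.0222 from limma over genes, 0.0347 over probe sets). The call ended with the note pairs as a block (0.0690), without IPEC-1 replicate 1 (0.0536) and without IPEC-J2 replicate 1, 2 or 3 (0.0638, 0.0773 and 0.0871), whereas without IPEC-1 replicate 2 the adjusted p was 0.00277 with a difference of 0.96.

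PDZK1, another PDZ scaffold of the apical membrane, was the single gene called lower, and its 2 probe sets did not run together. The brighter had signals of 5.21, 5.42 and 4.00 in IPEC-J2 and 5.92, 5.99 and 5.99 in IPEC-1. The dimmer had 5.44 on IPEC-J2 replicate 3 and floor values on the other 5 arrays. The array with the lowest value in the first probe set was thus the only array above the floor in the second. Neither probe set was called, with log2 differences of -1.09 (SE 0.43, adjusted p = 0.237 from limma) and 0.48 (SE 0.46, adjusted p = 0.707). Without IPEC-J2 replicate 3, the brighter one was called lower, with a difference of -0.65 (adjusted p = 0.0458 from limma). Their mean had a log2 difference of -0.31 (SE 0.04, adjusted p = 0.00927 from limma), with SDs of 0.06 in IPEC-J2 and 0.02 in IPEC-1, although the probe sets had SDs of 0.77 and 0.83 in IPEC-J2. The call ended with the note pairs as a block (0.0653), with quantile normalization (0.553), with the brighter probe set alone (0.152), with each array centred on its 75th percentile (0.0740) and when the fit held only genes with a signal above the floor (0.0509). All PDZK1 signals lay below 7.78 and 7.85, the stricter levels for IPEC-J2 and IPEC-1.

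MYO6 encodes myosin VI, the motor that moves towards the base of the microvillus and serves endocytosis there. It had signals of 10.10, 10.56 and 10.49 in IPEC-J2, against 9.48, 9.34 and 9.66 in IPEC-1. The lines were apart by 0.44 at their nearest values, close to the range of 0.46 within IPEC-J2. Its level in IPEC-J2 was 1.85-fold higher (log2 difference of 0.89, SE 0.16, adjusted p = 0.0265 from limma over genes, 0.0411 over probe sets). MYO6 kept its call over genes with the note pairs as a block (0.0346, against 0.0591 over probe sets, where the call ended) and without IPEC-J2 replicate 1 (0.0191) and lost it without any 1 of the other 5 arrays (0.0576 to 0.0981).

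CALML4, a relative of calmodulin, is a light chain of myosin VIIb in the adhesion complex at the tips of microvilli. Its signals were 9.43, 9.85 and 9.89 in IPEC-J2 and 6.82, 7.18 and 8.02 in IPEC-1. The IPEC-1 arrays were spread over 1.20, and all of them lay below the IPEC-J2 arrays. The gene was 5.22-fold higher in IPEC-J2, with a log2 difference of 2.38 (SE 0.37, adjusted p = 0.0173 from limma over genes, 0.0273 over probe sets), or 3.66-fold when the IPEC-1 mean is raised to the stricter level of 7.85. The call ended with the note pairs as a block (0.0678), without IPEC-1 replicate 2 (0.0624) and without IPEC-J2 replicate 2 or 3 (0.0645 and 0.0731).

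**Figure D2:**
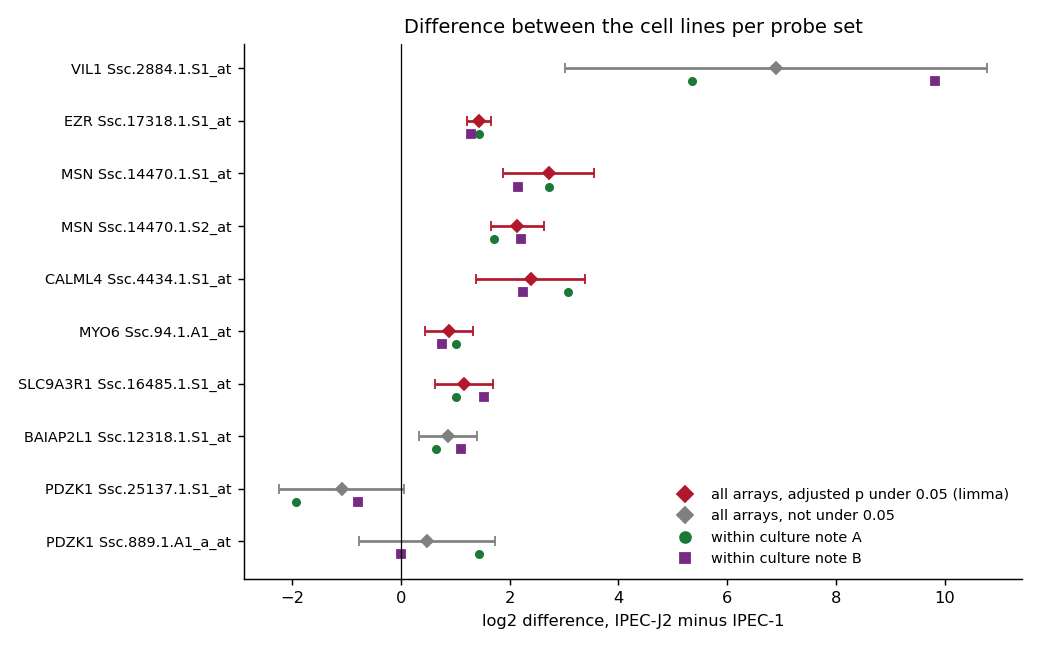
Log2 difference, IPEC-J2 minus IPEC-1, for each probe set (diamonds, with the 95% interval from limma) and within culture notes A and B (green circles and purple squares). Red diamonds passed an adjusted p of 0.05 in the fit over probe sets, in which VIL1 (0.0563) and BAIAP2L1 (0.0706) did not. The notes lie close together for EZR, at 1.43 and 1.28, and far apart for VIL1, at 5.36 and 9.83.

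The 7 higher genes had the same direction within both culture notes. Since the lines did not overlap in these genes, that direction was fixed beforehand, and only the sizes are informative. Within note A, the differences were 5.36 for VIL1, 1.43 for EZR, 2.22 for MSN, 3.07 for CALML4, 1.01 for MYO6, 1.02 for SLC9A3R1 and 0.65 for BAIAP2L1. Within note B they were 9.83, 1.28, 2.18, 2.25, 0.76, 1.52 and 1.1 in the same order of genes. PDZK1 had -0.24 within note A and -0.39 within note B. Among the 8 probe sets of the higher genes, IPEC-J2 replicate 1 held the lowest IPEC-J2 value in 6 and IPEC-1 replicate 2 the lowest IPEC-1 value in 4, and both arrays carry note B. IPEC-J2 replicate 1 was also the dimmest array of the series, with a 75th percentile of 8.31 against 8.51 to 8.56 on the others, and the part of this in the member values was not tested. With arrays centred on this percentile, all 7 genes stayed higher, with log2 differences between 0.92 for BAIAP2L1 and 6.96 for VIL1.

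**Figure D3:**
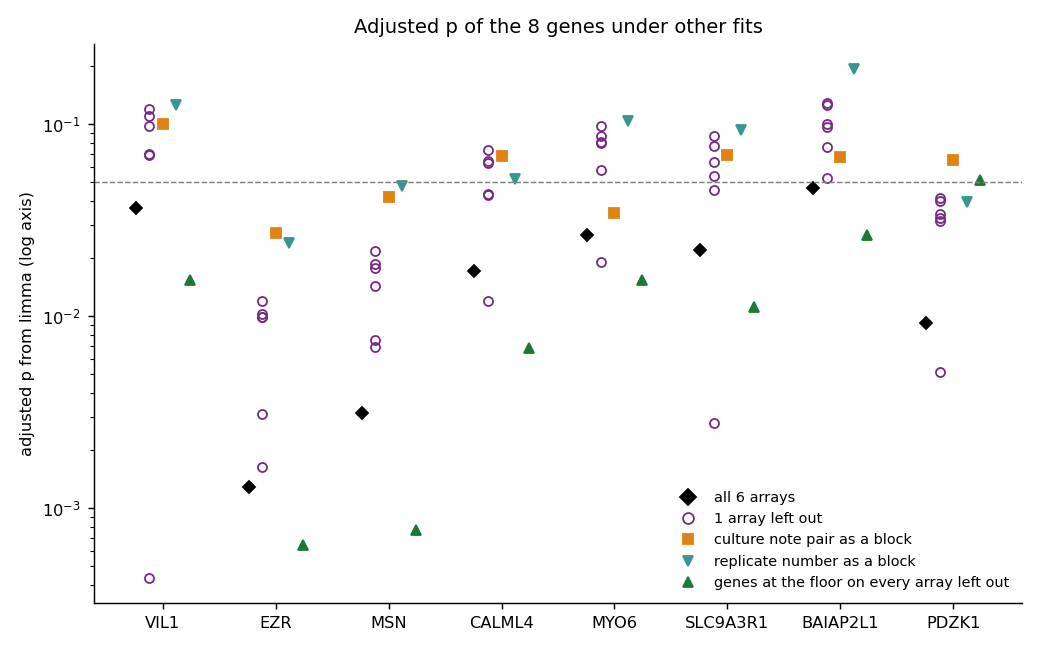
Adjusted p from limma (log axis) of each of the 8 genes with all 6 arrays (black diamonds), with 1 array left out (open circles), with the culture note pair (squares) or the replicate number (inverted triangles) as a block, and on genes above the floor on at least 1 array (upright triangles). The dashed line marks 0.05. All symbols of EZR and MSN lie under the line, and 1 open circle of VIL1, the fit without IPEC-1 replicate 2, lies at 0.000436.

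The profile over the 6 arrays was compared with that of the 4330 genes above the floor on every array, as a description in which the points share 2 cell lines. The gene most like VIL1 was SLC9A3R1, with a Pearson r of 0.996, both being lowest on IPEC-1 replicate 2. VIL1 was at the floor on that array, and how far its closest profiles rest on this value was not tested. GNG10 and NMNAT1 followed, also at 0.996. For EZR, the closest profiles were those of FADD, SGSM3 and OCEL1, at 0.999, 0.999 and 0.998. For MSN they were TINAGL1, CPD and CAMK2N1, at 0.999, 0.999 and 0.998. Such values were common, since 352 genes had an r above 0.95 with EZR, 350 with MSN and 103 with VIL1.

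Other genes of the brush border were taken from a list of 85 that includes the 8 members. Of its 77 other genes, 42 had a probe set with that symbol alone and 31 were above the floor on at least 1 array. In IPEC-J2, 1 of these 31 was higher and 6 were lower, beside 11.6% higher and 13.8% lower among all genes above the floor, and the median log2 difference was -0.10, against -0.05 over all genes above the floor. No test was run on this list as a whole.

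**Figure D4:**
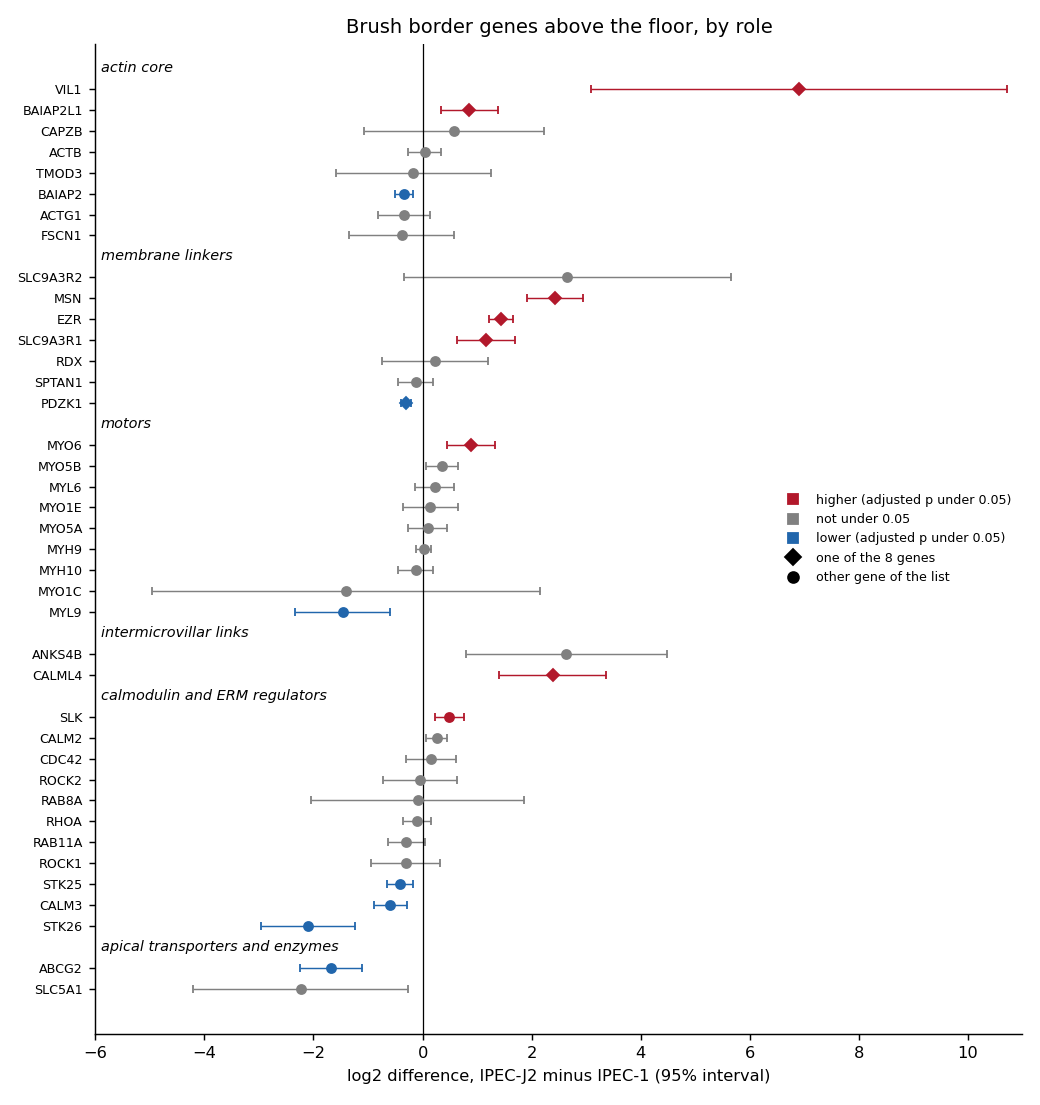
Log2 difference, IPEC-J2 minus IPEC-1, with the 95% interval from limma, for the 39 genes of the brush border list above the floor on at least 1 array, by role (ERM stands for ezrin, radixin and moesin). Diamonds are the 8 members and circles the other genes, red for higher, blue for lower and grey for genes that did not pass an adjusted p of 0.05. Among the circles, 1 is red and 6 are blue.

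In the actin core, 8 genes were above the floor. Apart from VIL1 and BAIAP2L1, BAIAP2, a close relative of BAIAP2L1, was 1.26-fold lower in IPEC-J2 (7.77 ± 0.03 against 8.10 ± 0.11 in IPEC-1, SD, n = 3 each, adjusted p = 0.0268 from limma, 0.0795 with the note pairs as a block and up to 0.0972 without 1 array). Both relatives were thus called, in opposite directions. The other actin core genes, among them ACTB, did not pass.

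The membrane linkers had 7 genes above the floor, of which EZR, MSN and SLC9A3R1 were higher and PDZK1 was lower. SLC9A3R2, which encodes NHERF2, the scaffold related to NHERF1, had signals of 9.03, 9.08 and 8.72 in IPEC-J2 and 4.00, 7.01 and 7.85 in IPEC-1. The lines did not overlap, but the IPEC-1 arrays were widely spread and the log2 difference of 2.66 (SE 1.12) did not pass (adjusted p = 0.196 from limma). In contrast to VIL1, the array at the floor was IPEC-1 replicate 1. SLC9A3R2 was singled out after its values had been seen.

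Of 9 motor genes above the floor, MYO6 was higher and MYL9, a regulatory light chain of non-muscle and smooth muscle myosin II, was lower. MYL9 had signals of 8.40, 7.54 and 7.60 in IPEC-J2 and 9.64, 9.34 and 8.95 in IPEC-1, a 2.76-fold lower level (log2 difference -1.46, SE 0.33, adjusted p = 0.0442 from limma, 0.103 with the note pairs as a block). The call ended without any 1 of 5 arrays, with an adjusted p of up to 0.144.

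For the adhesion complex between microvilli, the list held 5 genes, and only CALML4 and ANKS4B, a scaffold of this complex, had a value. ANKS4B had mean signals over 2 probe sets of 5.20, 7.27 and 7.45 in IPEC-J2, with floor values throughout IPEC-1. The lines did not overlap, but the gene did not pass (adjusted p = 0.0662 from limma). Its IPEC-J2 mean was 3.07-fold above the level of 5.02 and not above 7.85. These levels come from single probe sets, so for a mean over probe sets they give a reference and not a bound. ANKS4B too was singled out after its values had been seen.

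Among 11 calmodulin genes and regulators of the ERM proteins, SLK was the single gene called higher. SLK is a kinase that phosphorylates ERM proteins. It was 1.41-fold higher in IPEC-J2 (10.16 ± 0.17 against 9.66 ± 0.02 in IPEC-1, SD, n = 3 each, adjusted p = 0.0318 from limma, 0.109 with the note pairs as a block). STK26, a kinase that phosphorylates ezrin during polarisation of intestinal cells, had 4.85, 5.82 and 5.82 in IPEC-J2 and 7.76, 7.62 and 7.40 in IPEC-1. It was called lower, with a log2 difference of -2.10 (SE 0.32, adjusted p = 0.0174 from limma, 0.0755 with the note pairs as a block), and both means lay below the stricter levels of 7.78 and 7.85. Its relative STK25 and the calmodulin gene CALM3 were 1.33-fold and 1.5-fold lower (adjusted p = 0.0402 and 0.0310 from limma). Without 1 array, the adjusted p reached 0.101 for SLK, 0.0633 for STK26, 0.135 for STK25 and 0.0998 for CALM3.

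Most apical transporters and digestive enzymes of the list were not detected above the floor. Of 11 with a value, 9 never rose above it, among them the peptidases ANPEP, DPP4 and ENPEP, the sodium-proton exchanger SLC9A3 and the fatty acid binding proteins FABP1 and FABP2. Since the floor carries no order, a difference in these genes could not be measured. ABCG2, an efflux transporter, had floor values throughout IPEC-J2 and 5.68, 6.07 and 5.29 in IPEC-1 (adjusted p = 0.0105 from limma, 0.0583 with the note pairs as a block, 0.0502 at most with 1 array left out). Its IPEC-1 mean over probe sets was 1.49-fold above the level of 5.10 for IPEC-J2 and not above 7.78, as a reference and not a bound. SLC5A1, the glucose transporter SGLT1, had signals of 6.41, 6.22 and 4.00 in IPEC-J2 and 7.80, 7.89 and 7.65 in IPEC-1. The lines did not overlap, with IPEC-J2 lower, but the log2 difference of -2.24 (SE 0.74) did not pass (adjusted p = 0.116 from limma).

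The label of both lines as epithelial was checked against marker genes. All 10 epithelial markers were above the floor on at least 1 array, and 9 of them on arrays of both lines, with EPCAM at 13.55 ± 0.04 in IPEC-J2 and 13.39 ± 0.06 in IPEC-1 (SD, n = 3 each). Of the 10, 3 were called. KRT19 was lower, at 12.28 ± 0.05 in IPEC-J2 and 13.08 ± 0.09 in IPEC-1 (SD, n = 3 each, adjusted p = 0.00223 from limma). CLDN7 was higher, at 11.53 ± 0.32 in IPEC-J2 and 10.44 ± 0.20 in IPEC-1 (SD, n = 3 each, adjusted p = 0.0297 from limma, 0.0576 with the note pairs as a block). CLDN3 had 6.14 ± 0.12 in IPEC-J2 (SD, n = 3) and floor values throughout IPEC-1 (adjusted p = 0.000214 from limma). Its IPEC-J2 mean over probe sets was 2.18-fold above the level of 5.02 and not above 7.85, as a reference and not a bound. On the log2 scale, the summed signal of the list ranged between 15.21 and 15.35 in IPEC-J2 and between 15.35 and 15.39 in IPEC-1. Of 12 enterocyte markers, 5 had a value, and ANPEP, APOA4, FABP1 and FABP2 were at the floor on every array. The remaining marker, the transcription factor HNF4A, had 8.68 ± 0.11 in IPEC-J2 and 4.60 ± 0.53 in IPEC-1 (SD, n = 3 each, adjusted p = 0.00244 from limma). With IPEC-1 replicate 1 at the floor, the IPEC-J2 mean of HNF4A over probe sets was 12.6-fold above 5.02 and 1.77-fold above 7.85. These too are references and not bounds. The sum of the enterocyte list was 8.83 to 9.0 in IPEC-J2 and 6.32 to 6.58 in IPEC-1. Genes at the floor enter these sums at the floor value, so HNF4A alone moves this one.

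Markers of other cell types were in part at the floor. Of those with a value, 4 of 8 for fibroblasts, 1 of 6 for endothelium, 2 of 4 for leukocytes and 2 of 5 for secretory cells were above the floor on at least 1 array. PTPRC and ITGAM for leukocytes, CDH5, VWF, KDR, TEK and CLDN5 for endothelium, COL3A1, DCN, LUM and FBN1 for fibroblasts and TFF3, CHGA and NEUROD1 for secretory cells had no signal above it. Of the leukocyte markers, CD3E was called lower, with floor values throughout IPEC-J2 and 5.93 ± 0.29 in IPEC-1 (SD, n = 3, adjusted p = 0.00346 from limma). It was at least 1.77-fold lower against the level of 5.10, with no bound against 7.78. The endothelial marker PECAM1 was lower too, at 4.29 ± 0.50 in IPEC-J2 and 5.75 ± 0.12 in IPEC-1 (SD, n = 3 each, adjusted p = 0.0307 from limma, 0.102 with the note pairs as a block). With 2 IPEC-J2 arrays at the floor, the IPEC-1 mean of PECAM1 over probe sets was 1.57-fold above 5.10 and not above 7.78. This is a reference and not a bound. Summed signals in IPEC-J2 were 6.00 to 6.22 for the leukocyte list, 6.59 to 6.77 for endothelium, 11.45 to 12.15 for fibroblasts and 8.08 to 9.15 for secretory cells. In IPEC-1 they were 6.59 to 6.88, 7.03 to 7.12, 12.23 to 13.37 and 13.03 to 13.80. Genes at the floor enter these sums at the floor value. The lower ends for leukocytes and endothelium in IPEC-J2 hold floor values alone. In IPEC-1, VIM makes up most of the fibroblast sum and CLCA1 most of the secretory sum, so these sums do not describe their lists. THY1 was the only fibroblast marker called, at 9.55 ± 0.24 in IPEC-J2 (SD, n = 3) and the floor in IPEC-1. Its IPEC-J2 mean over probe sets was 23.2-fold above the level of 5.02 and 3.26-fold above 7.85, again as a reference and not a bound. VIM had 11.48 ± 0.47 in IPEC-J2 and 12.86 ± 0.61 in IPEC-1 (SD, n = 3 each, adjusted p = 0.0989 from limma). CLCA1, a marker of goblet cells, was lower in IPEC-J2, at 7.41 ± 0.74 against 13.32 ± 0.41 in IPEC-1 (SD, n = 3 each, adjusted p = 0.00305 from limma). COL1A2, PDGFRB, SPINK4 and CD14 were not called. Their means were 5.91, 4.71, 7.16 and 4.25 in IPEC-J2 and 5.94, 5.55, 6.53 and 4.00 in IPEC-1. The part of these genes in the member differences was not tested.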

How the data were processed

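Affymetrix Porcine Genome Arrays of 3 IPEC-J2 and 3 IPEC-1 cultures were used, grouped by the sample titles. Per the labels, the authors made the deposited log2 signals with GCOS 1.1.1 and PLIER, after background correction and probe set summary as the methods give them, although the methods name another GCOS version. The methods name global scaling and a normalization step, without saying which procedure gave the deposited values, and the log base is not given in the sources used here. The values were read as log2 because every array had its lowest value at exactly 4.00, the log2 of 16. No detection calls were used, and precision is limited by how many arrays there are.

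Of 24123 probe sets, 124 controls were left out. Of the rest, 10069 had 1 symbol in the platform annotation, 198 had several and 13732 are unnamed here. The methods' averaging over probe sets of a symbol gave 6765 genes, of which 1252 were never above the floor. These stayed in the fit and its adjustment. The lmFit and eBayes functions of limma 3.58.1 (R 4.3.3) compared the lines per gene and per probe set, without a block. They were also run on simulated unpaired arrays, with effects larger than those of several members and placed away from the floor. That run does not cover small effects, paired arrays or signals at the floor. The methods call the experiments independent, and p-values reflect the spread among these 6 arrays alone.

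Deviations from the line means correlated at 0.193 for note pair A, 0.405 for B and 0.259 for the remaining pair, over 4330 genes. The note pairs were therefore used as a block in the second fit. The main fit, with its SEs, intervals and adjusted p, leaves this pairing out. The members and lists were chosen with earlier results of these data known. Named genes were all members, RDX, ACTB, up to 4 called genes per role group by the size of their difference, and the 3 closest profiles of VIL1, EZR and MSN. SLC9A3R2, ANKS4B and SLC5A1, which were not called, were named outside this rule. List genes that are no probe set's only symbol in the platform annotation used here, among them ESPN, PLS1 and MYO1A, were not analysed here, although another annotation may place them on the array. No genome coordinates or sequences were used. A search of promoters for motifs, which had been planned, was not run. The stricter level for lower bounds and the fits on note pairs A and B alone were added after the data had been seen. All levels come from single probe sets, and against a mean over several probe sets they serve only as a reference.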

Additional observations from a re-analysis of the deposited data

How the results depend on the processing

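The fits in this section ran on the gene means of the 8 members, on their 10 probe sets and on the 50 genes with a value in the brush border list. In 159 refits of a single member gene, 111 calls held and 48 ended, and the direction turned in 0. These refits reuse the same arrays and are not separate support. The t-test and the fits with a fixed block leave the difference unchanged. Leaving out an array cannot turn the direction of a gene whose lines do not overlap. As gene means, EZR and MSN kept their calls in every fit except that on the arrays of culture notes A and B alone (0.121 and 0.0846), which called 0 genes of the whole table by limma with 1 residual degree of freedom. At an unadjusted p under 0.05, that fit gave 4 member genes, 5 member probe sets and 1541 genes in all, and the methods' t-test on these arrays gave 4 member genes unadjusted and 0 adjusted. The count of called members, 8 genes with all arrays and no block, was 3 with the note pairs as a block (11% of all genes, against 20.7% in the fit without a block) and 0 on notes A and B alone. With 1 array left out it ranged between 3 and 5, while 11.4 to 17.3% of all genes were called. Of the 10 probe sets, 6 were called with all arrays, 1 with the note pairs as a block, 0 on notes A and B alone and 2 to 4 with 1 array left out. A share over all probe sets is given only for all arrays without a block (11.8%), so the other probe set counts have no background beside them. The brush border list had 15 called genes with all arrays and no block, 6 with the note pairs as a block, 0 on notes A and B alone and 6 to 11 with 1 array left out.

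The replicate numbers of the titles showed no sign of pairing, since same-numbered arrays correlated at -0.190, -0.288 and 0.050 in their deviations. Deviations from a line mean are tied to each other, so these correlations cannot settle the pairing. With the replicate number as a block, 3 member genes and 3 list genes were called, against 8.81% of all genes, and 1 member probe set, without a share over all probe sets. Over all genes, 272 were then higher and 324 lower, in place of 640 and 761, and with the note pairs as a block 364 and 379. When genes never above the floor were left out of the fit, 7 member genes, all except PDZK1 (0.114), were called with the note pairs as a block, against 20.1% of the genes fitted. The methods' t-test called 8 member genes unadjusted, against 30.7% of all genes, and 6 after Benjamini-Hochberg adjustment, against 16.9%. Signals near the floor limit PDZK1, the dimmer MSN probe set and the size of the VIL1 difference.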
